A study of Mus musculus with 12 samples.

Results

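The 9 genes described here encode the major histocompatibility complex (MHC) class I molecule and the proteins that load it with peptide. They were chosen by name, and a gene was taken where its deposited gene symbol matched a member exactly. All 9 of 9 were listed both in the dim table, which held 17811 genes, and in the bright table, which held 17521, and 15768 genes were in both. The members were the heavy chains H2-K1, H2-D1 and H2-T23, the light chain B2m, the peptide transporter subunits Tap1 and Tap2, tapasin (Tapbp), the aminopeptidase Erap1 and the transcriptional activator Nlrc5.

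RNA from mouse glomerular endothelial cells (GEC) was sequenced in 12 libraries, 3 per group, from 3 wild type (WT) and 3 Alport syndrome (AS) mice that were 4 months old and on the C57BL/6 strain. Alport syndrome is a hereditary disease of basement membrane collagen, and the AS mice were labelled Col4a5 -/-. All 6 mice, controls included, carried Tek-Cre with a tdTomato reporter, and digested glomeruli of each mouse were sorted into dim and bright tdTomato (tdT) cells, so that each mouse gave 1 dim and 1 bright library. Tek-Cre recombines in endothelium and also in part of the blood lineage, which limits the reporter as a mark of endothelium alone.

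Class I molecules carry short peptides from the cell's own proteins to its surface, where CD8 T cells and natural killer cells read them. Peptides cut by the proteasome are pumped into the endoplasmic reticulum by the Tap1/Tap2 transporter, trimmed by Erap1, and placed by tapasin into the groove of a heavy chain paired with B2m. Nlrc5 is carried to a set of class I promoters by factors bound to the X and Y boxes, and interferon raises the transcription of most genes of the pathway. Endothelium is known to hold class I on its surface at rest.

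Library totals ran from 11440169 to 15074909 gene counts. Over the 3 libraries of each group, the summed level of the leukocyte markers was 9448 to 16067 TMM-scaled CPM (counts per library of 1e+06 counts) in WT dim and 17798 to 20504 CPM in AS dim libraries, where 22 of 22 markers were listed, against 61.2 to 106 CPM in WT bright and 131 to 172 CPM in AS bright libraries, where 15 were. The endothelial markers, 14 of 14 of which were listed in each table, summed to 868 to 1565 CPM in WT dim, 254 to 339 CPM in AS dim, 12183 to 19021 CPM in WT bright and 17603 to 20331 CPM in AS bright libraries. Ptprc, the pan-leukocyte phosphatase, averaged 1372 ± 71.3 CPM in AS dim and 4.69 ± 2.96 CPM in AS bright cells, and Cdh5, the cadherin of endothelial junctions, 10.7 ± 2.23 and 1089 ± 97.5 CPM (SD, n = 3). The dim libraries thus held abundant leukocyte transcripts and few endothelial ones, against their label, and are called dim tdT cells below. Proximal tubule markers, 10 of 10 listed, summed to 1358 to 6074 CPM in WT dim and 375 to 2489 CPM in WT bright libraries, and to 13.6 to 357 and 19.7 to 438 CPM in AS dim and AS bright libraries. The targeted gene Col4a5 was counted 439 to 877 times in WT dim and 17 to 51 times in AS dim libraries, but 69 to 158 and 43 to 104 times in WT bright and AS bright libraries, where the groups overlapped.

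The members sit on 4 chromosomes (GRCm38, Gencode M21). H2-K1 (chr17:33996017-34000347, minus strand), Tapbp (chr17:33915899-33929292), Tap1 (chr17:34187553-34197225), Tap2 (chr17:34203527-34216321), H2-D1 (chr17:35262730-35267499) and H2-T23 (chr17:36029773-36032855, minus strand) lie in the mouse MHC on chromosome 17. B2m (chr2:122147686-122153083), Erap1 (chr13:74639568-74693201) and Nlrc5 (chr8:94434356-94527272) lie outside it.

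Promoter windows from RefSeq (GRCm38.p6), 250 bases before to 50 after the start, were given for 7 of the 9 members, H2-K1 having 2 that differ in their start, and none was given for Tap2 and Nlrc5. The 4 windows below are shown because these members had the highest levels (H2-K1, H2-D1, B2m) or the largest AS over WT difference (Tap1). They are written 5′ to 3′ on the gene's strand, with capitals marking matches on either strand to the CCAAT box (CCAAT, or ATTGG on the other strand), the X2 core (TGACG, or CGTCA) and the interferon-stimulated response element (ISRE) core, a pair of GAAA repeats spaced by any 2 bases.
H2-K1 (chr17:34000298-34000597): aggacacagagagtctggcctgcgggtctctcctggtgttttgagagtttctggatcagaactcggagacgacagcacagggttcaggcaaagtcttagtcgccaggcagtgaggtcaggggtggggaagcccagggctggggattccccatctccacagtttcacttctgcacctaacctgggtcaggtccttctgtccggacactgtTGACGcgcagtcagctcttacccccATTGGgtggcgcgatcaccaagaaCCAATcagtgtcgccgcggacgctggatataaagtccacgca
H2-D1 (chr17:35262844-35263143): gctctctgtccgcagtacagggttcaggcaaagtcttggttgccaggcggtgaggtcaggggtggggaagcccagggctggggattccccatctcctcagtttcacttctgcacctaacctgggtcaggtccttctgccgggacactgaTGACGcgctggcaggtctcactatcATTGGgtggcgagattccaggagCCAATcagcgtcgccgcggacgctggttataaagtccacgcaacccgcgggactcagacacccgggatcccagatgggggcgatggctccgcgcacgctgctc
B2m (chr2:122147437-122147736): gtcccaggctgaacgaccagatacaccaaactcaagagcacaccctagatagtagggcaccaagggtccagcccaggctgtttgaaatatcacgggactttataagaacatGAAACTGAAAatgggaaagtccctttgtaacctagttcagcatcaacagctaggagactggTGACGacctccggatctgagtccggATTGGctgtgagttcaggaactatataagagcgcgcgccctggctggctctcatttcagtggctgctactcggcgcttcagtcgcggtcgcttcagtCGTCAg
Tap1 (chr17:34187306-34187605): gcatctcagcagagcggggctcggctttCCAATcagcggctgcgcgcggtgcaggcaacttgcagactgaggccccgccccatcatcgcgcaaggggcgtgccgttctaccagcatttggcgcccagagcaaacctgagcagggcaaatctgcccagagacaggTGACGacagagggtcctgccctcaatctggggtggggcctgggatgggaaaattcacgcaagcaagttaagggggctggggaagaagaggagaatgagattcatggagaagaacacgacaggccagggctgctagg

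The X2 core was found in 4 of the 7 members with a window (H2-K1, H2-D1, B2m and Tap1) and in 20.8% of all 32851 windows. The CCAAT box was found in 6 of 7, all but Erap1, against 37.4% of all windows, and the ISRE core in 3 of 7 (H2-T23, B2m and Erap1), against 3.44%. None of these matches overlapped another. In H2-K1, H2-D1 and B2m an X2 core was followed by a CCAAT box on the other strand with 20 bases between them, an arrangement looked for after the matches were seen and present in 31 of the 32851 windows (0.0944%). The window of Tap1 shared 275 bases with that of Psmb9, an immunoproteasome subunit transcribed the other way, whose start lies 226 bases upstream. These are matches of letters, not sites of binding.

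The 9 genes spanned a wide range of levels, and 3 of them were among the most abundant transcripts in every group. Levels between genes were compared as CPM per kilobase of merged exons. B2m averaged 1551 ± 157 in WT dim, 1865 ± 608 in AS dim, 1889 ± 17.4 in WT bright and 2190 ± 241 CPM per kilobase in AS bright libraries (SD, n = 3), and between 0.0265% and 0.126% of 15069 genes had a higher group mean. H2-K1 followed, with 513 ± 86.7 in WT bright to 906 ± 94.4 CPM per kilobase in AS dim cells, and H2-D1 with 355 ± 68.4 to 608 ± 76.9 in the same groups.

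Tapasin stood next in all 4 groups, from 76.5 ± 3.48 CPM per kilobase in WT bright to 120 ± 34.7 in AS dim cells. Below it the order depended on the group. In WT dim cells Nlrc5 (19.2 ± 1.47) and H2-T23 (18.7 ± 2.70 CPM per kilobase) did not differ beyond their spread and stood above Tap1 (10.11 ± 1.48) and Tap2 (7.35 ± 1.13), with Erap1 lowest at 2.32 ± 0.571. In WT bright cells H2-T23 (19.4 ± 2.17) led, Tap1 (12.5 ± 0.753) and Tap2 (12.4 ± 2.44) did not differ beyond their spread, and neither did Nlrc5 (5.48 ± 2.30) and Erap1 (5.05 ± 0.488 CPM per kilobase). H2-K1 and H2-D1 belong to a family of near-identical genes whose reads can be shared, so their levels are uncertain by an unknown amount.

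**Figure D1:**
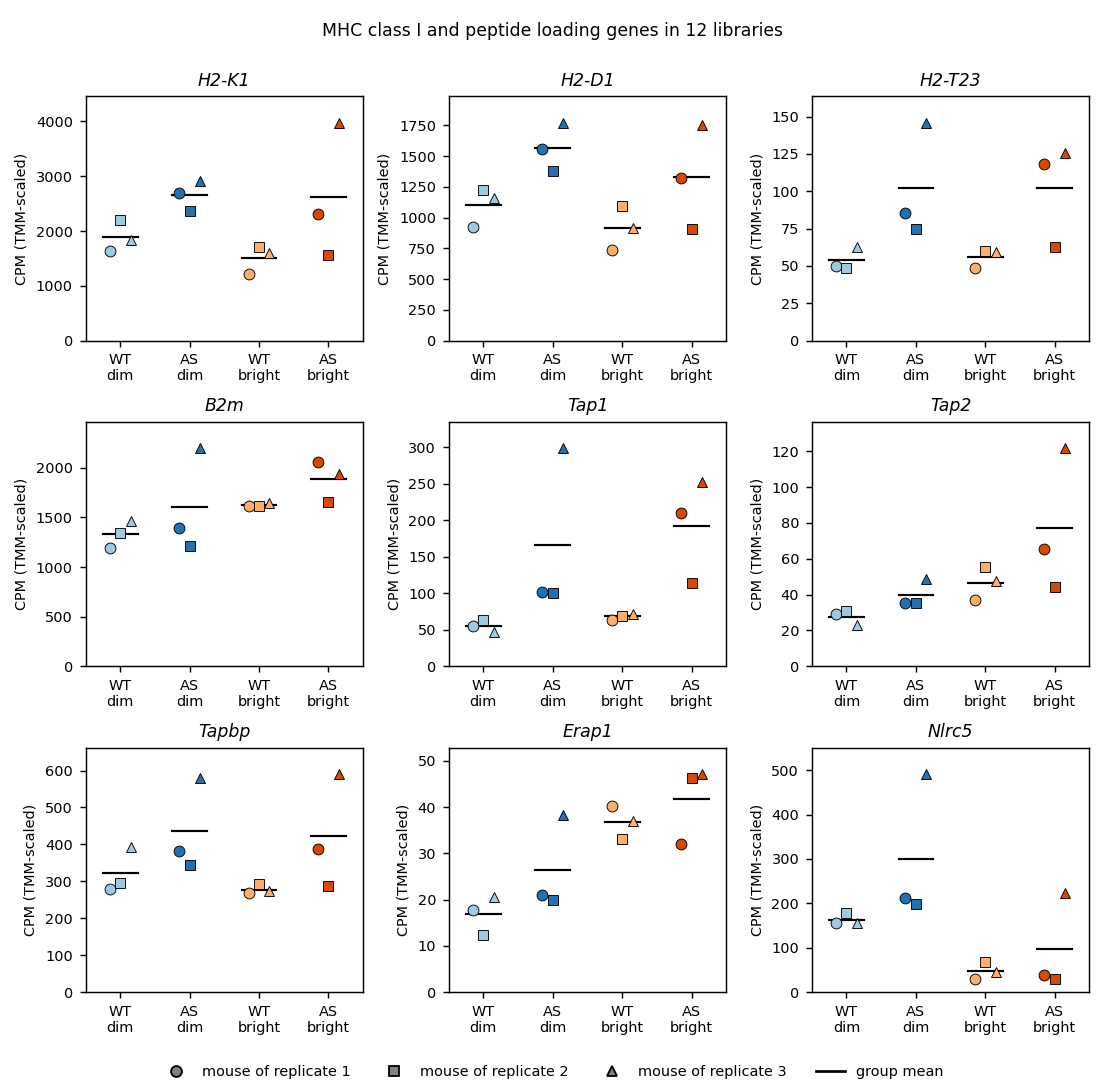
TMM-scaled CPM (vertical axes, linear, from 0) of the 9 genes in the 12 libraries, by group (horizontal axes); symbols mark the mouse of each replicate number and bars the group mean (n = 3). AS replicate 3, the triangle, is the highest AS dim library for 9 of 9 genes and the highest AS bright library for 8 of 9.

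The comparison of AS with WT asked how the sorted cells differ in Alport syndrome. All 9 members had a higher fitted level in AS than in WT, in dim and in bright cells, also under the RLE scaling and under library sizes alone, but none passed the adjusted threshold of 0.05 (edgeR quasi-likelihood test, Benjamini-Hochberg adjustment over all genes tested). In bright cells 0 of 9 passed, beside 0.188% of 14396 genes called higher, and 3 had an unadjusted p under 0.05 (H2-K1, H2-T23 and Tap1), beside 9.98% of all genes. In dim cells 0 of 9 passed, beside 2.21% of 14637 genes called higher, and 5 had an unadjusted p under 0.05 (H2-K1, H2-D1, H2-T23, Tap1 and Nlrc5), beside 10.3%. The median log2 fold change of the 9 was 0.65 in bright and 0.48 in dim cells, against -0.03 and -0.02 over all genes. In bright cells DESeq2, the edgeR likelihood ratio test, a leukocyte covariate and leaving out AS bright replicate 2 each called 1 member higher, Tap1, beside 3.41%, 1.63%, 1.26% and 0.598% of all genes. In dim cells DESeq2 and the fit of all 12 libraries did the same, beside 4.55% and 3.55%.

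Among the heavy chains, H2-K1, the classical K locus product, was counted 18572, 26133 and 21787 times in the WT dim libraries and 38234, 28545 and 36539 times in the AS dim libraries (replicates 1 to 3). The 3 AS dim libraries, at 2366 to 2916 CPM, were all above the 3 WT dim libraries, at 1629 to 2208 CPM, and the fold was 1.38 (log2 0.46, SE 0.17, adjusted p = 0.1352). The WT bright libraries held 19295, 23939 and 24294 counts of H2-K1 and the AS bright libraries 31659, 23904 and 54674, a fold of 1.65 (log2 0.72, SE 0.32, adjusted p = 0.2185). AS bright replicate 2, at 1560 CPM, lay within the WT bright range of 1221 to 1706, and replicate 3, at 3981 CPM, far above it.

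H2-D1, the classical D locus product, kept near 0.6 counts for each count of H2-K1: the ratio was 0.554 to 0.631 in 6 dim libraries and 0.571 to 0.640 in 5 of 6 bright libraries, and 0.441 in AS bright replicate 3. Its log2 fold change in AS was 0.48 (SE 0.17) in dim cells, where the groups did not overlap, and 0.46 (SE 0.26) in bright cells, where they did, with adjusted p = 0.1272 and 0.3307. H2-T23 encodes Qa-1, a nonclassical heavy chain read by natural killer receptors. It was counted 569, 579 and 746 times in WT dim and 1204, 903 and 1829 times in AS dim libraries, and 770, 840 and 902 times in WT bright and 1622, 957 and 1725 times in AS bright libraries. The AS libraries were above the WT libraries in both sorts, by 1.85-fold in dim (log2 0.89, SE 0.29, adjusted p = 0.09454) and 1.73-fold in bright cells (log2 0.79, SE 0.27, adjusted p = 0.1375).

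B2m, the invariant light chain, moved least in dim and next to least in bright cells. Its AS over WT log2 fold change was 0.23 (SE 0.23) in dim and 0.14 (SE 0.20) in bright cells, with adjusted p = 0.5769 and 0.7332. The 3 WT bright libraries lay within 1615 to 1642 CPM, below the AS bright libraries at 1654 to 2057 CPM, and in dim cells the groups overlapped. Without AS dim replicate 3, at 2198 CPM, the difference in dim cells was -0.05.

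The transporter subunit Tap1 showed the largest differences of the 9 genes. Its counts were 637, 748 and 558 in WT dim against 1439, 1208 and 3745 in AS dim libraries, and 1008, 974 and 1092 in WT bright against 2888, 1756 and 3462 in AS bright libraries. AS libraries were above WT libraries in both sorts, at 100 to 299 against 47.0 to 63.2 CPM in dim and 115 to 252 against 63.8 to 71.8 CPM in bright cells. The fold was 2.94 in dim (log2 1.56, SE 0.44, adjusted p = 0.06264) and 2.67 in bright cells (log2 1.42, SE 0.28, adjusted p = 0.0547), and 3.20% and 1.85% of all genes had a higher log2 fold change. With each library left out in turn the log2 fold change was 0.84 to 1.78 in dim and 1.16 to 1.69 in bright cells. Tap1 shares 212 exon bases with the opposite strand gene Psmb9.

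Tap2, the partner subunit, was counted 334, 368 and 272 times in WT dim and 501, 423 and 608 times in AS dim libraries. The AS dim libraries were the higher ones, by 1.39-fold (log2 0.48, SE 0.26, adjusted p = 0.2945). In bright cells the counts were 585, 777 and 726 in WT against 896, 674 and 1671 in AS, groups that overlapped (log2 0.65, SE 0.34, adjusted p = 0.2915). The count ratio of Tap1 to Tap2 was 1.91 to 2.05 in WT dim and 2.86 to 6.16 in AS dim libraries. In bright libraries it was 1.25 to 1.72 in WT and 2.07 to 3.22 in AS. Both sorts came from the same 3 mice per genotype. The ratio was not tested, and no share of other gene pairs that separate in this way was computed.

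Tapasin, which bridges the transporter and the empty heavy chain, had log2 fold changes of 0.40 (SE 0.24) in dim and 0.53 (SE 0.25) in bright cells, with adjusted p = 0.3368 and 0.25 and overlapping groups in both. Erap1, which trims peptides in the endoplasmic reticulum, had 0.61 (SE 0.37) and 0.11 (SE 0.25), with adjusted p = 0.3358 and 0.8298 and overlapping groups. Tapbp, Erap1, Tap2 and Nlrc5 share 904, 834, 698 and 78 exon bases with genes on the other strand, of 3628, 7280, 3781 and 8493 exon bases, so their counts are uncertain to that extent. Tapbp also shares 149 exon bases with Zbtb22, a gene on its own strand, which adds to this.

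Nlrc5, the class I transactivator, was counted 1775, 2099 and 1847 times in WT dim, 3002, 2398 and 6162 times in AS dim, 448, 942 and 671 times in WT bright and 520, 458 and 3067 times in AS bright libraries. In dim cells the AS libraries were the higher ones, at 199 to 492 against 156 to 177 CPM (log2 0.85, SE 0.34, adjusted p = 0.1598). In bright cells AS replicates 1 and 2 (37.9 and 29.9 CPM) lay within the WT range of 28.3 to 67.1 CPM and replicate 3 stood at 223 CPM. The fitted log2 fold change there was 0.99 (SE 0.65, adjusted p = 0.4038), and -0.53 without AS bright replicate 3.

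In all, 6 of 9 members did not overlap between AS and WT dim libraries and were higher in AS (H2-K1, H2-D1, H2-T23, Tap1, Tap2 and Nlrc5), beside 16.1% of all genes. In bright cells 3 of 9 did so (H2-T23, B2m and Tap1), beside 15.6%.

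**Figure D2:**
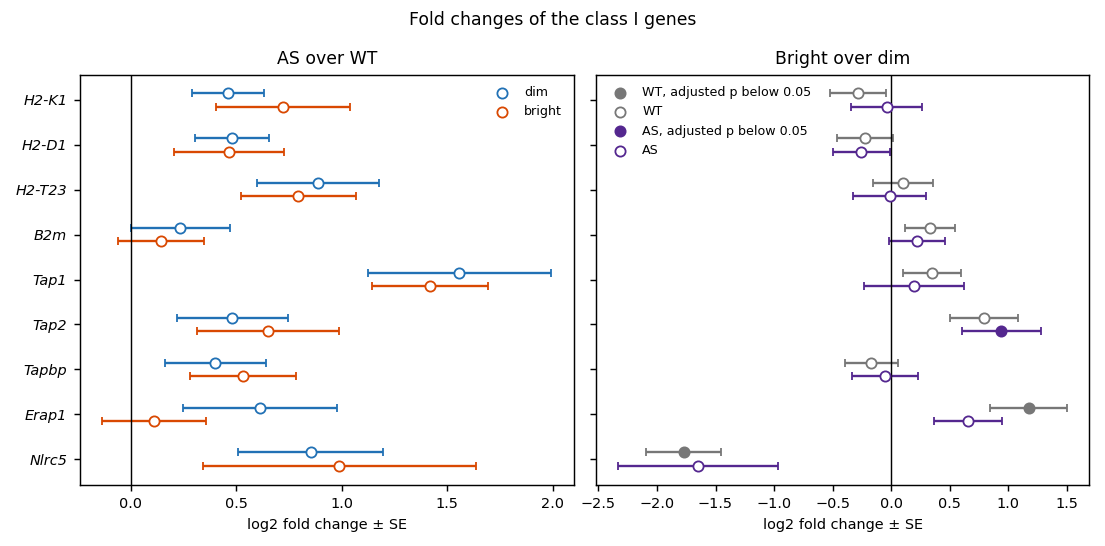
Fitted log2 fold change (horizontal axes) with SE for each gene, AS over WT on the left and bright over dim on the right; filled points have an adjusted p below 0.05 in the edgeR quasi-likelihood test (6 libraries per comparison). All points on the left lie above 0 and none is filled, and on the right Nlrc5 and Erap1 in WT and Tap2 in AS are filled.

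The AS mouse of replicate 3 held most of the highest AS values. It was the highest AS dim library for 9 of 9 members and the highest AS bright library for 8 of 9, all but B2m, while 34.2% and 33.7% of all genes had their highest value there. Against the mean of the other 2 AS mice, Nlrc5 was 6.59-fold and Tap2 2.23-fold higher in its bright library, and Tap1 was 2.96-fold and Nlrc5 2.39-fold higher in its dim library. Only 0.135% of all genes exceeded the bright fold of Nlrc5.

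The same mouse had the highest summed level of 38 interferon-stimulated genes in dim cells, 3996 CPM against 2362 and 1607 in replicates 1 and 2. In bright cells, where 37 were listed, it had 8665 CPM against 5966 and 6194. Its leukocyte markers summed to 20504 CPM in dim cells, against 18527 and 17798, and to 131 CPM in bright cells, against 172 and 139, and its proximal tubule markers to 13.6 CPM in dim cells, against 32.5 and 357, and to 19.7 CPM in bright cells, against 26.5 and 438. Replicate 2, with the most proximal tubule signal of the AS mice, had the lowest sum of the 9 members among them, 5729 CPM in dim and 4705 CPM in bright cells. The part of these lists in the members' levels was not tested beyond the covariate fits. Without AS dim replicate 3 the dim log2 fold changes of the 9 ran from -0.05 (B2m) to 0.84 (Tap1), and without AS bright replicate 3 the bright ones ran from -0.53 (Nlrc5) to 1.16 (Tap1).

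**Figure D3:**
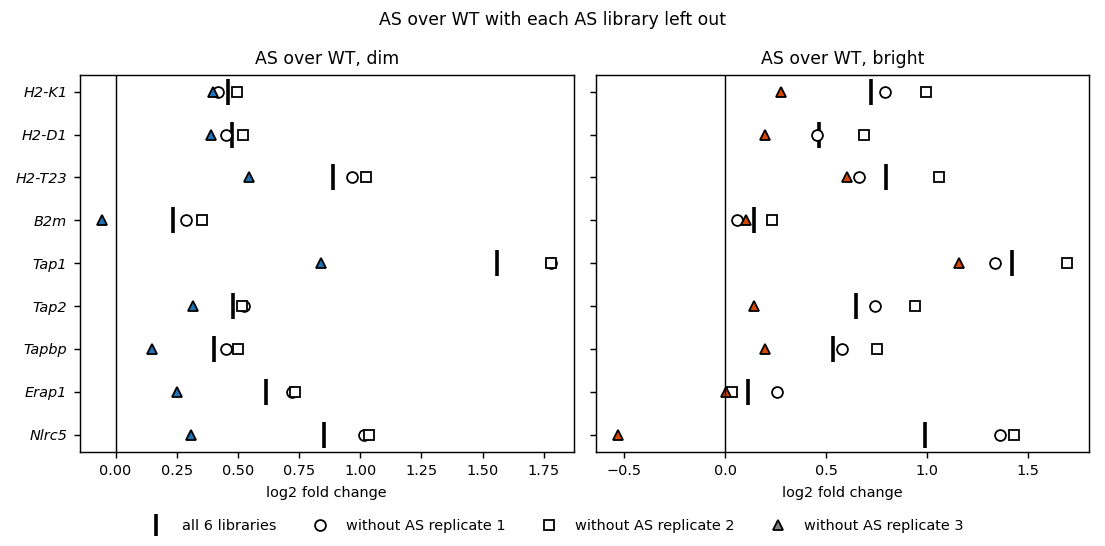
AS over WT log2 fold change (horizontal axes) of each gene with all 6 libraries (bars) and with each AS library left out in turn (symbols), in dim cells on the left and bright cells on the right. Leaving out AS replicate 3, the filled triangle, moves Nlrc5 in bright cells from 0.99 to -0.53 and Tap1 in dim cells from 1.56 to 0.84.

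Proximal tubule markers and genotype moved together, since WT libraries held more of them in dim cells, and also in bright cells apart from 1 AS library. With the mean log2 level of these markers as a covariate, the fitted AS over WT value was below 0 for 4 members in bright cells (H2-K1, H2-D1, Tap2 and Nlrc5) and 6 in dim cells (H2-D1, H2-T23, B2m, Tapbp, Erap1 and Nlrc5), and that of Tap1 was 0.71 and 0.16. Leukocyte markers also separated the genotypes, being higher in every AS than in every WT library of either sort. With their mean log2 level as a covariate, Tap1 was 2.40 in dim (adjusted p = 0.2645) and 1.58 in bright cells (adjusted p = 0.03258), and Nlrc5 was 1.31 (adjusted p = 0.4321) and 2.0 (adjusted p = 0.08044). Other markers, not run as covariates, separated the genotypes too. Endothelial markers summed to 254 to 339 CPM in AS dim and 868 to 1565 CPM in WT dim libraries, with 9 of 14 called lower (6.42% of all genes). Podocyte markers summed to 538 to 561 CPM in AS dim and 622 to 1234 CPM in WT dim libraries. In bright libraries they summed to 1345 to 1514 CPM in AS and 965 to 1211 CPM in WT. Marker level and genotype cannot be told apart with 3 mice per genotype.

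The comparison of bright with dim cells asked how the sorted subpopulations differ. Although dim libraries held abundant leukocyte transcripts and bright libraries endothelial ones, the summed level of the 9 members was alike in size, at 4333 to 5400 CPM in WT dim and 4061 to 4992 CPM in WT bright libraries, and 5729 to 8488 and 4705 to 9034 CPM in AS dim and AS bright libraries. Most of this sum was H2-K1, B2m and H2-D1, which averaged 1891, 1334 and 1101 CPM in WT dim libraries, so it says little of the less abundant members. The median bright over dim log2 fold change of the members was 0.10 in WT and -0.01 in AS, beside -0.04 and 0.02 over all genes. MHC class II genes, which present peptides taken up from outside, had a median of -6.44 in WT and -6.01 in AS, with 9 of 9 tested lower in bright cells in both, beside 11.5% and 26.5% of all genes. Among bright libraries alone 7 of these 9 passed the count filter, so the count of 9 rests partly on genes kept through the dim libraries. In AS over WT, 6 of 10 class II genes were called higher in dim cells (median 0.87), beside 2.21% of all genes. These calls were lost without AS dim replicate 1 or 3, fits in which 0 genes of the whole table were called higher. In bright cells 0 of 7 were called higher (median 1.304), beside 0.188%. Of these, 5 of 7 were higher with p under 0.05 before adjustment (9.98% of all genes). DESeq2 called 4 of 6 (3.41%). In these bulk libraries fewer cells of a type and less RNA per cell cannot be told apart.

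**Figure D4:**
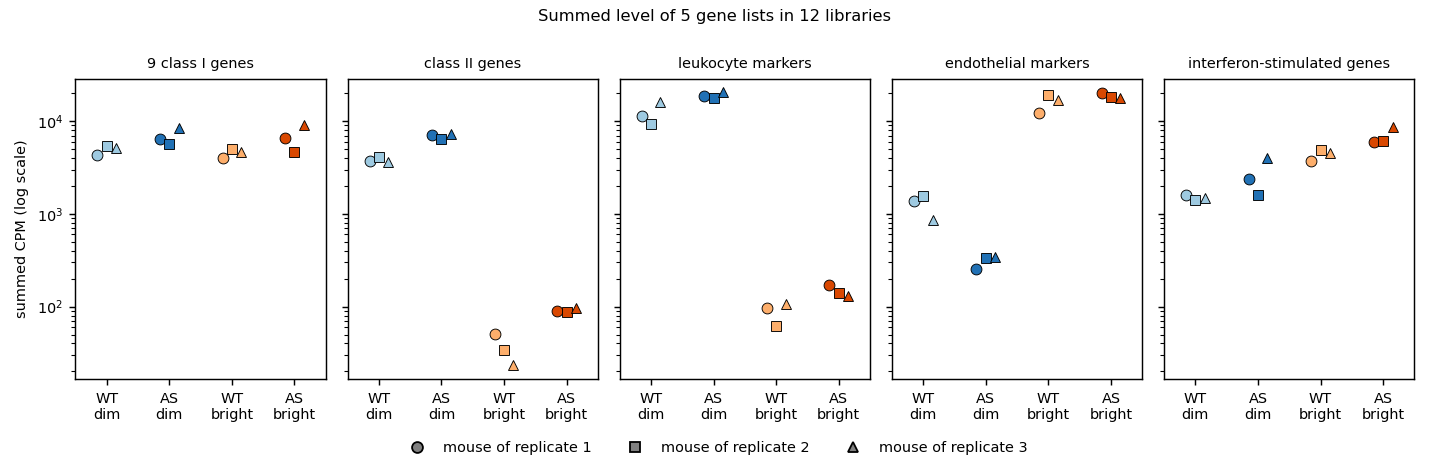
Summed TMM-scaled CPM (vertical axis, log scale) of 5 gene lists in each of the 12 libraries, by group; symbols mark the mouse of each replicate number. The class I sum, mostly H2-K1, B2m and H2-D1, stays between 4061 and 9034 CPM in every library, while class II genes and leukocyte markers differ widely between dim and bright libraries and endothelial markers differ the other way.

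In WT mice 1 member rose and 1 fell in bright cells, beside 13.8% and 11.5% of 14247 genes. Nlrc5 fell by 1.77 on the log2 scale (SE 0.32), to a level 3.42-fold lower in bright cells (adjusted p = 0.003403), with 28.3, 67.1 and 44.1 CPM in bright against 156, 177 and 156 CPM in dim libraries. It passed in all 14 alternatives run, and its log2 fold change ran from -2.10 to -1.53 with each library left out. Erap1 rose 2.26-fold (log2 1.18, SE 0.33, adjusted p = 0.02804), with 40.2, 33.1 and 36.9 CPM in bright against 17.8, 12.3 and 20.5 CPM in dim libraries. The groups did not overlap for either gene, and 21% of all genes were lower in this way. Erap1 passed in 8 of 14 alternatives, and without any 1 library other than WT dim replicate 3 its adjusted p was 0.05228 to 0.08509.

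Tap2 (log2 0.79, SE 0.29), Tap1 (0.35, SE 0.25) and B2m (0.33, SE 0.22) were also higher in every WT bright than in every WT dim library, which 20.8% of all genes were, with adjusted p = 0.07807, 0.3359 and 0.2963. The heavy chains H2-K1 (-0.29, SE 0.24), H2-D1 (-0.23, SE 0.24) and H2-T23 (0.10, SE 0.26) and tapasin (-0.17, SE 0.23) overlapped, with adjusted p from 0.4191 to 0.81.

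In AS mice 1 of 9 members rose in bright cells and none fell, beside 28.6% and 26.5% of 14052 genes, and all 9 overlapped between the sorts, where 32% and 30.2% of all genes were higher or lower without overlap. Tap2 rose 1.92-fold (log2 0.94, SE 0.34, adjusted p = 0.0365), with 65.3, 44.0 and 122 CPM in bright against 35.4, 35.1 and 48.5 CPM in dim libraries. Without AS bright replicate 3 its log2 fold change was 0.46 (adjusted p = 0.1811), and its call was also lost without AS bright replicate 1, AS dim replicate 1 or AS dim replicate 2 and with the AS mouse of replicate 3 left out of both sorts (0.59, adjusted p = 0.1255).

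Nlrc5 had a log2 fold change of -1.65 (SE 0.68, adjusted p = 0.06421) in AS mice. With the mouse as a block, since the dim and bright cells of a mouse share its number in the labels, it fell by 2.11 (SE 0.30, adjusted p = 0.000116) and Erap1 rose by 0.69 (SE 0.25, adjusted p = 0.03917; 0.66 and 0.08041 without the block). Without AS bright replicate 3 the value for Nlrc5 was -3.15 (adjusted p = 0.0007295), and with that mouse left out of both sorts it was -2.64 (adjusted p = 0.000122).

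Within single mice, the dim library held 5.49, 2.64 and 3.53 times the Nlrc5 level of the bright library in WT replicates 1 to 3, and 5.60, 6.65 and 2.20 times in AS replicates 1 to 3. H2-D1 was likewise lower in the bright library of all 6 mice, by 1.01-fold in AS replicate 3 to 1.52-fold in AS replicate 2. Erap1 (1.23- to 2.69-fold) and Tap2 (1.25- to 2.51-fold) were higher in the bright library of all 6 mice. Thus 2 members were lower and 2 higher in bright cells in 6 of 6 mice, beside 21.5% and 21.6% of 15084 genes.

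Whether the genotype difference itself differed between bright and dim cells was tested over all 12 libraries, and 0 of 9 members passed with edgeR, beside 3.77% of 15084 genes, and 0 of 8 with DESeq2, which gave no adjusted p for Nlrc5. No member had an unadjusted p under 0.05, which 18.5% of all genes had. The difference of log2 fold changes, bright minus dim, ran from -0.46 (Erap1, SE 0.43, adjusted p = 0.6241) to 0.30 (H2-K1, SE 0.41, adjusted p = 0.7525), with a median of 0.02 beside 0.13 over all genes. For Nlrc5 it was 0.18 with an SE of 0.87, and without AS bright replicate 3 it was -1.33.

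Of the other antigen presentation genes, 35 of 46 were listed in the bright and 33 in the dim table. In AS bright against WT bright cells 0 of 34 tested passed, although 8 higher and 2 lower ones had p under 0.05 before adjustment (9.98% and 11.9% of all genes did), with a median log2 fold change of 0.39, and in dim cells 1 of 32 passed, beside 2.21% of all genes, with a median of 0.21. That gene was Psmb8, an immunoproteasome subunit encoded between Tap1 and Tap2, which rose 2.12-fold in AS dim cells (log2 1.08, SE 0.28, adjusted p = 0.04888) and shares 498 exon bases with an antisense gene. Its call held in 3 of 16 alternatives and was lost without any 1 of the 6 libraries (log2 0.81 to 1.22, adjusted p from 0.06934 to 0.1755). Without AS dim replicate 1 or 3, 0 genes of the whole table were called higher. The log2 fold change of Psmb8 was 1.35 with the leukocyte and 0.19 with the proximal tubule covariate, fits in which 0 of 14637 genes were called. DESeq2 called 2 of 31 higher in bright cells and 3 of 32 higher and 1 lower in dim cells, beside 3.41% of all genes in bright and 4.55% and 10.6% in dim cells. Between bright and dim cells, 2 rose and 7 fell of 33 in WT mice, beside 13.8% and 11.5% of all genes, and 9 rose and 9 fell of 32 in AS mice, beside 28.6% and 26.5%. H2-Q10 is a class I heavy chain gene of the Q region, and its reads can be shared with its relatives. Its bright over dim log2 fold change was -5.78 in WT (SE 0.67, adjusted p = 0.0002543). In AS mice it was -5.24 (SE 0.56, adjusted p = 2.727e-05). Mr1, which presents microbial vitamin B metabolites, was higher in bright than in dim cells by 3.46 on the log2 scale in WT (SE 0.49, adjusted p = 0.0009768) and by 2.02 in AS mice (SE 0.36, adjusted p = 0.0009765).

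Among transcription regulators of class I genes, Irf1, an interferon-induced activator, rose in bright cells of both genotypes. It averaged 1201 ± 60.3 CPM in WT bright and 215 ± 29.1 CPM in WT dim cells (log2 2.53, SE 0.22, adjusted p = 6.606e-05), and 1874 ± 328 and 259 ± 126 CPM in AS bright and AS dim cells (log2 2.84, SE 0.33, adjusted p = 4.458e-05). Irf9, an interferon regulatory factor, was 2.48-fold higher in WT bright (adjusted p = 0.00487) and 2.56-fold higher in AS bright than in the dim cells (adjusted p = 0.002303). Ciita, the class II counterpart of Nlrc5, was lower in bright cells by 2.98 (SE 0.68) in WT and 4.31 (SE 0.51) in AS on the log2 scale, with 1 to 9 and 3 to 13 counts in the WT bright and AS bright libraries. It did not pass the count filter among bright libraries alone, so it was tested here only through its dim libraries. Of the 20 regulators, 2 rose and 3 fell in WT bright cells and 4 rose and 4 fell in AS bright cells, beside the same shares of all genes as above. In AS over WT, 0 of 19 passed in bright cells, beside 0.188% of all genes called higher. The unadjusted p there was under 0.05 for 5 that were higher and 2 that were lower (9.98% and 11.9% of all genes). In dim cells 1 of 20 passed (2.21% of all genes), which was Ciita (log2 1.89, SE 0.48, adjusted p = 0.04953). The call of Ciita held in 4 of 16 alternatives and was lost without any 1 of the 6 libraries (log2 1.60 to 2.20, adjusted p from 0.06505 to 0.1529). Without AS dim replicate 1 or 3 no gene of the table was called higher. The log2 fold change of Ciita was 2.55 with the leukocyte and 2.66 with the proximal tubule covariate, where no gene of the table was called. DESeq2 called 1 of 19 regulators higher and 1 lower in bright cells, beside 3.41% and 5.03% of all genes, and 2 of 20 higher in dim cells, beside 4.55%.

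Of the interferon ligands, receptors and kinases, 2 rose and 3 fell of 9 in WT bright cells and 2 rose and 6 fell in AS bright cells, beside 13.8% and 11.5% of all genes in WT and 28.6% and 26.5% in AS. In AS over WT none passed with edgeR, beside 0.188% of all genes called higher in bright and 2.21% in dim cells. However, 5 of 9 in bright and 7 of 10 in dim cells were higher with p under 0.05 before adjustment (9.98% and 10.3% of all genes). DESeq2 called 1 and 3 higher (3.41% and 4.55%). The receptor chain Ifngr1 was at 146 ± 22.6 CPM in WT bright and 1193 ± 77.5 CPM in WT dim cells (log2 -2.98, SE 0.24, adjusted p = 3.914e-05), whereas Socs1, the feedback inhibitor of interferon signalling, was at 24.4 ± 4.42 and 2.72 ± 0.943 CPM (log2 3.20, SE 0.45, adjusted p = 0.0009167). Of 37 interferon-stimulated genes tested, 19 rose and 2 fell in WT bright cells and 17 rose and 3 fell in AS bright cells, against those same shares. In AS over WT, 1 of 37 passed in bright cells, Ifit1 (log2 1.97, SE 0.32, adjusted p = 0.03454), and 0 of 38 in dim cells. Of all genes, 0.188% were called higher in bright and 2.21% in dim cells. Before adjustment 23 of 37 in bright and 12 of 38 in dim cells were higher with p under 0.05, beside 9.98% and 10.3% of all genes, and the medians were 0.82 and 1.03. The call of Ifit1 held in 10 of 16 alternatives and was lost without WT bright replicate 3 (log2 1.87, adjusted p = 0.09977), AS bright replicate 1 (1.99, 0.2344) or AS bright replicate 3 (1.58, 0.1418), with the proximal tubule covariate (1.18, 0.3551), in the version 3 fit and with the replicate block. The replicate block called 7 genes of the whole table higher and 9 lower, and each of the other fits that lost it called 0. DESeq2 called 13 of 37 higher in bright and 5 of 38 in dim cells, beside 3.41% and 4.55% of all genes.

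The genes whose pattern over the 4 group means was nearest that of H2-K1, by Euclidean distance of centred log2 CPM among 15084 genes, were Prpf6 (0.0157), Hnrnpf (0.0275) and Chmp4b (0.0358). Those nearest to Nlrc5 were Slc2a1 (0.0761), Gm3788 (0.0777) and Man2b1 (0.0860). Each rests on 4 means of 3 libraries, and none of the 6 was a member or in another list.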

How the data were processed

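The 12 libraries (3 mice per genotype, each giving dim and bright cells) were deposited as 2 tables of gene counts, made by the authors with FastQC 0.11.5, cutadapt, Trimmomatic and STAR 2.6.0c on GRCm38 with Gencode annotation; the strand setting of the counting is not given in the sources used here. The tables also held RPKM values computed by the authors, which were not used because the deposited length sums exons over transcripts. Columns of the authors' own comparisons (log2 fold change, a likelihood ratio score, p-value and FDR) were not used and are not printed. The 92 ERCC spike-in entries per table were left out.

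Counts were tested with the edgeR 4.0.16 quasi-likelihood test (R 4.3.3) after filterByExpr and TMM scaling, and p-values were adjusted by Benjamini-Hochberg across every gene tested, with a threshold of 0.05. AS was compared with WT within each table, bright with dim within each genotype on genes in both tables, and the difference of genotype effects over all 12 libraries. CPM values are TMM-scaled over the 12 libraries, and values per kilobase use merged exon length from Gencode M21. Alternatives were RLE scaling, library sizes alone, no filter on low counts, DESeq2 1.42.0, the edgeR likelihood ratio test, a replicate block, all libraries in 1 fit, marker covariates and leaving out each library. Scripts were tested on simulated data. Promoter sequences are from RefSeq (GRCm38.p6).

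The members and lists were chosen with earlier results of these data known. Text names all 9 members, of other lists at most the 3 highest and 3 lowest called genes per comparison, markers, Col4a5, and the 3 genes most like H2-K1 and Nlrc5. Psmb9 and Zbtb22 are named only because they overlap a member. Dim and bright libraries of 1 mouse share its number in the labels, and their deviations from the group means correlated at 0.307, 0.233 and 0.107 in WT and 0.0788, 0.38 and 0.167 in AS mice. AS and WT mice share only a number. With 3 libraries per group, an exact permutation test could not go below p = 0.1. Library totals of 11440169 to 15074909 counts set the counting precision, and p-values measure the spread between mice.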

Additional observations from a re-analysis of the deposited data

How the results depend on the processing

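Over all alternatives, the members' log2 fold changes kept direction and side of the threshold in 635 cases, reversed in 66, newly passed in 16 and no longer passed in 11. The cause was not tested. Members called higher in AS over WT rose from 0 to 1 in bright cells with DESeq2, the likelihood ratio test and the leukocyte covariate (0 to 1 with libraries left out) and from 0 to 1 in dim cells with DESeq2 and all 12 libraries in 1 fit. In bright over dim, members called higher in WT went from 1 to 0 with the likelihood ratio test (0 to 1 with libraries left out). In AS they went from 1 to 2 with the replicate block (0 to 3), and those called lower from 0 to 1 with the likelihood ratio test, the replicate block, all 12 libraries and the AS mouse of replicate 3 left out (0 to 1).

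Reversed values of AS over WT were Erap1 -0.016 in bright cells with the leukocyte covariate and, with the proximal tubule covariate, H2-K1 -0.10, H2-D1 -0.17, Tap2 -0.25 and Nlrc5 -0.93 in bright and H2-D1 -0.010, H2-T23 -0.014, B2m -0.60, Tapbp -0.36, Erap1 -0.14 and Nlrc5 -0.31 in dim cells. With libraries left out, Nlrc5 in bright ran from -0.53 to 1.43 and B2m in dim cells from -0.054 to 0.36. In bright over dim, Tapbp in WT ran from -0.27 to 0.012, and in AS Tap1 from -0.093 to 0.92, H2-K1 from -0.46 to 0.18, H2-T23 from -0.21 to 0.34 and Tapbp from -0.36 to 0.21. H2-T23 in AS was 0.0072 with no filter, 0.00089 with all 12 libraries and 0.13 without the AS mouse of replicate 3.

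The difference of genotype effects reversed for H2-D1 with RLE (-0.016), DESeq2 (-0.016), library sizes alone (-0.14) and the replicate block (-0.012), for Tapbp (-0.0012) and Nlrc5 (-0.014) with library sizes alone, and for Tap1 (0.016) and Nlrc5 (-0.21) with the replicate block. Without the AS mouse of replicate 3 it was -0.058 for H2-K1, -0.13 for H2-D1, 0.12 for H2-T23, 0.22 for B2m, 0.39 for Tap1, -0.11 for Tap2 and -0.78 for Nlrc5. With libraries left out it ran from -0.13 to 0.44 for H2-K1, -0.22 to 0.17 for H2-D1, -0.37 to 0.31 for H2-T23, -0.35 to 0.25 for B2m, -0.50 to 0.64 for Tap1, -0.28 to 0.39 for Tap2, -0.14 to 0.45 for Tapbp and -1.33 to 0.75 for Nlrc5.

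Over all genes, 27 were called higher and 38 lower in AS over WT bright cells, against 451 and 666 with DESeq2, 234 and 663 with the likelihood ratio test, 181 and 618 with the leukocyte covariate, 68 and 71 with all 12 libraries, 16 and 23 with no filter, 7 and 9 with the replicate block and 0 with the proximal tubule covariate or the edgeR version 3 fit (0 to 106 and 0 to 222 with libraries left out). In dim cells 324 and 939 were called, against 662 and 1551 with DESeq2, 536 and 1570 with all 12 libraries, 130 and 452 with the version 3 fit, 63 and 431 with the replicate block and 0 with either covariate, while 215 were higher with no filter and 1451 lower with the likelihood ratio test (0 to 452 and 0 to 1373). In WT 1632 genes were lower in bright cells, against 2635 with all 12 libraries (1074 to 1639). For the difference of genotype effects 446 and 123 were called, against 830 and 356 with DESeq2, 744 and 348 with the likelihood ratio test, 231 lower with the block, and 101 and 9 without the AS mouse of replicate 3 (223 to 692 and 29 to 195). The version 3 fit and the fit without that mouse were chosen after seeing the data. Same-numbered AS and WT mice, which share only a number, had deviations that correlated at -0.156 to 0.141 in bright and -0.125 to 0.0526 in dim cells. Beyond the calls of Nlrc5 and Erap1 in bright over dim AS cells, the replicate block changed no member's call.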
